A study of Mus musculus with 4 samples.

Results

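Laminins are the cross-shaped proteins of the basement membrane, the sheet of matrix under endothelium and epithelium. The genes described here are the 7 laminin chain genes Lama3, Lama4, Lama5, Lamb1, Lamb2, Lamb3 and Lamc1, taken by name from the 55367 gene names of the deposited count table, and all 7 were found and passed the filter on low counts, as did 16945 genes in all. RNA came from endothelial cells of subcutaneous KPC tumours grown in C57BL/6 mice. KPC is a mouse pancreatic cancer line, and the cells were sorted as carrying the endothelial protein CD31 and lacking the leukocyte protein CD45. An intraperitoneal injection of control rat IgG (2 libraries) or of anti-CD93, which binds a receptor on the endothelial surface (2 libraries), was given 48 hours before the cells were taken. The labels give neither the age of the mice nor whether each library came from a separate mouse, so the p-values rest on the spread of these 4 libraries, which may be technical.

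A laminin is a trimer of 1 alpha, 1 beta and 1 gamma chain, joined in a coiled coil. The alpha chain carries the globular end that integrins and dystroglycan bind. Endothelium is known for the laminins built from alpha4 or alpha5 with beta1 or beta2 and gamma1, whose chains come from Lama4, Lama5, Lamb1, Lamb2 and Lamc1. Lama3 and Lamb3 encode the alpha3 and beta3 chains, which assemble together in the laminin that anchors epithelium, so both are called the epithelial chains below. In sorted bulk RNA, fewer cells of a type and less RNA per cell cannot be told apart.

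The 4 libraries held 9364294 to 17813993 reads assigned to genes. The smallest library, control IgG replicate 2, showed the most genes, 27718 against 23796 to 25430. Its log2 CPM (CPM is a gene's reads scaled to the TMM-adjusted size of its library) correlated with the other libraries across genes at r = 0.945 to 0.947, against 0.977 to 0.983 among the others, and genes are not independent replicates. Cd93 itself was at 1530 and 1759 CPM with control IgG and 1716 and 1514 CPM with anti-CD93, so the groups overlapped. The endothelial marker Pecam1, which encodes CD31, was at 1685, 1872, 1661 and 1663 CPM. Any series of 4 values runs in this order, from the first and second control libraries to the first and second anti-CD93 libraries. Ptprc, which encodes CD45, was at 2.37, 4.71, 5.08 and 2.32 CPM.

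No laminin chain passed the test between the groups. By edgeR's quasi-likelihood test with Benjamini-Hochberg adjustment over all genes, 0 of the 7 members had an adjusted p under 0.05, as did 0% of the 16945 genes tested. At an unadjusted p under 0.05 there was 1 member, Lamb3, on the higher side, where 1.99% of all genes tested lay, and none on the lower side, where 2.50% lay. DESeq2 and limma-voom also called 0 members after adjustment, with 2 (Lama3 and Lamb3) and 1 (Lamb3) at an unadjusted p under 0.05. Over all genes, in either direction, 794 of 33419 were at that level by DESeq2 and 806 of 16945 by limma-voom. The libraries of both groups did not overlap for 4 of the 7 members, 2 higher (Lama3 and Lamb3) and 2 lower (Lama5 and Lamb2) with anti-CD93. Over all genes tested this held for 39.8%, with 20.1% higher and 19.7% lower. The median log2 fold change of the members was -0.075, against -0.0092 over all genes.

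Before the values, the bases just upstream of the start site are shown for 4 of the members, from RefSeq's promoter table for GRCm38.p6. No window is shown for Lama3, Lama4 or Lamc1. Lama5 and Lamb2 lay lower and Lamb3 higher with anti-CD93 while Lamb1 overlapped, but none of them passed the test. A link between these sequences and the values was not tested. Each run is the 250 bases before the RefSeq start on the gene's own strand. Only the Lama5 window ends at the edge of the gene span in the count table, printed for each gene below. The windows of Lamb1 and Lamb2 run into that span, and that of Lamb3 lies wholly inside it. The windows are therefore not alike in place. Lama5 is at chr2:180225860-180226109 on the minus strand, and Lamb1 at chr12:31265043-31265292, Lamb2 at chr9:108479612-108479861 and Lamb3 at chr1:193301744-193301993 are on the plus strand. Capitals mark GGGCGG or its reverse complement CCGCCC, the GC box.
Lama5: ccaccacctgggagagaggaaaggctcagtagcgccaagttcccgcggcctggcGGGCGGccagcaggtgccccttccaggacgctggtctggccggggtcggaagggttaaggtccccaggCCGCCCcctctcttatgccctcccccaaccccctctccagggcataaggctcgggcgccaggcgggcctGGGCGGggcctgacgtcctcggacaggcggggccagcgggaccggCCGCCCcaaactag
Lamb1: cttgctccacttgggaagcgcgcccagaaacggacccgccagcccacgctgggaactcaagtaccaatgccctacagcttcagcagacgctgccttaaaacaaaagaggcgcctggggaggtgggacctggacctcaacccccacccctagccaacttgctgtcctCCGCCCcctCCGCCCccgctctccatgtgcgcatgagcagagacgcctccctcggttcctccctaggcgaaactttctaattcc
Lamb2: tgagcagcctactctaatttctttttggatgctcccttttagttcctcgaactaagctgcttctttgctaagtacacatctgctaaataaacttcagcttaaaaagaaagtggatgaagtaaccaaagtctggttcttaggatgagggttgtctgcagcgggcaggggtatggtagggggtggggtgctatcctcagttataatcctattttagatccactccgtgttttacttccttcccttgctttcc
Lamb3: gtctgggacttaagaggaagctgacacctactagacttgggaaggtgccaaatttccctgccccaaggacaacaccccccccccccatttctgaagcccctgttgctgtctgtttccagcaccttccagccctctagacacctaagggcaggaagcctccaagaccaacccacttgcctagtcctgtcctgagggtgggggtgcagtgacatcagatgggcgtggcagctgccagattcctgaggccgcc
The GC box, searched on both strands, occurred 4 times before Lama5 and 2 times before Lamb1, and did not occur in the windows of Lamb2 or Lamb3. It was in 32.7% of the 32851 RefSeq windows of this length. TGANTCA, the AP-1 motif, and TATAAA, each searched on both strands, were in none of the 4 windows, and were in 6.75% and 12.4% of all windows. The GC content of the windows was 72.4% for Lama5, 62% for Lamb1, 43.6% for Lamb2 and 58.8% for Lamb3. Of these 4 windows, that of Lama5 was the highest in GC content and that of Lamb2 the lowest. Lamb3 has a second RefSeq start, whose window at chr1:193301993-193302242 also holds none of the 3 motifs.

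Lamc1 encodes gamma1, the gamma chain of nearly all vascular laminins. It was at 1748 and 1932 CPM with control IgG and 1764 and 1626 CPM with anti-CD93, and the groups overlapped. The log2 fold change (anti-CD93 against control IgG, here and below) was -0.12 (SE 0.17, 95% interval -0.51 to 0.27, adjusted p = 0.877 by edgeR). The gene lies on chromosome 1 from 153218922 to 153332786 (GRCm38, minus strand).

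Lama4 encodes alpha4, a short alpha chain without the long N-terminal arm of alpha5, and its longest coding sequence in the GENCODE vM21 annotation is 5.45 kb against 11.2 kb for Lama5. It was at 1054 and 1006 CPM with control IgG and at 1065 and 975 CPM with anti-CD93. The highest and the lowest library both belonged to anti-CD93, and they lay 1.09-fold apart, the narrowest range of the 7 members. Its log2 fold change was -0.013 (SE 0.16, 95% interval -0.39 to 0.37, adjusted p = 0.986 by edgeR). Lama4 lies on chromosome 10 from 38965515 to 39110188, plus strand.

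Lamb1, the gene of beta1, was the second most abundant member. It was at 1172 and 1410 CPM with control IgG and at 1275 and 1175 CPM with anti-CD93, so both anti-CD93 libraries lay between the control libraries. The log2 fold change was -0.075 (SE 0.18, 95% interval -0.48 to 0.33, adjusted p = 0.931 by edgeR). Lamb1 lies on chromosome 12 from 31265234 to 31329644, plus strand.

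Lama5 encodes alpha5, the long alpha chain that binds the receptors integrin alpha6 beta1 and Bcam. It was at 513 and 717 CPM with control IgG and at 485 and 499 CPM with anti-CD93. Control IgG replicate 2 stood high, and the other control library was close to the anti-CD93 libraries. The log2 fold change was -0.32 (SE 0.20, 95% interval -0.79 to 0.14, adjusted p = 0.812 by edgeR). Leaving out control IgG replicate 2 gave -0.063 (edgeR, adjusted p = 0.910). Leaving out control IgG replicate 1, so that replicate 2 stood alone for its group, gave -0.51 with an adjusted p of 0.00483 by edgeR, past the threshold, as were 24.7% of the 18750 genes tested in that fit. The adjusted p of Lama5 ran from 0.00483 to 0.9999 over its 14 alternatives. Lama5 lies on chromosome 2 from 180176373 to 180225859, minus strand.

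Lamb2, the gene of beta2, which can take the place of beta1 in the trimer, followed the same order of libraries as Lama5. It was at 200.1 and 273 CPM with control IgG and at 173 and 185 CPM with anti-CD93. Again control IgG replicate 2 was the highest library. The log2 fold change was -0.40 (SE 0.20, 95% interval -0.86 to 0.059, adjusted p = 0.812 by edgeR). Leaving out that library gave -0.16 (edgeR, adjusted p = 0.725). Leaving out the other control library gave -0.57, past the threshold with an adjusted p of 0.00358 by edgeR in the same fit, where 24.7% of all genes passed. Over the 14 alternatives the adjusted p of Lamb2 ran from 0.00358 to 0.9999. Lamb2 lies on chromosome 9 from 108479736 to 108490530, plus strand.

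Lama3, the gene of the epithelial alpha3 chain, was at 95.6 and 98.3 CPM with control IgG and at 176 and 106 CPM with anti-CD93. Both control libraries and anti-CD93 replicate 2 lay close together, and anti-CD93 replicate 1 stood above them. The log2 fold change was 0.54 (SE 0.25, 95% interval -0.030 to 1.12, adjusted p = 0.812 by edgeR). It was 0.15 without anti-CD93 replicate 1 and 0.88 without anti-CD93 replicate 2. Lama3 lies on chromosome 18 from 12333819 to 12583013, plus strand. Over 197 of its exonic bases (1.83%) it overlaps Gm29200 on the other strand, and counting ignored strand. None of the other 6 members shares an exonic base with another gene of the table.

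Lamb3, the gene of beta3, was the least abundant member in reads, at 39.3 and 56.1 CPM with control IgG and 88.6 and 59.9 CPM with anti-CD93. As for Lama3, anti-CD93 replicate 1 was the highest library, and anti-CD93 replicate 2 was only a little above control IgG replicate 2. The log2 fold change was 0.64 (SE 0.26, 95% interval 0.038 to 1.25, unadjusted p = 0.0398 and adjusted p = 0.812 by edgeR). It was 0.35 without anti-CD93 replicate 1. Lamb3 lies on chromosome 1 from 193207699 to 193343878, plus strand.

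**Figure D1:**
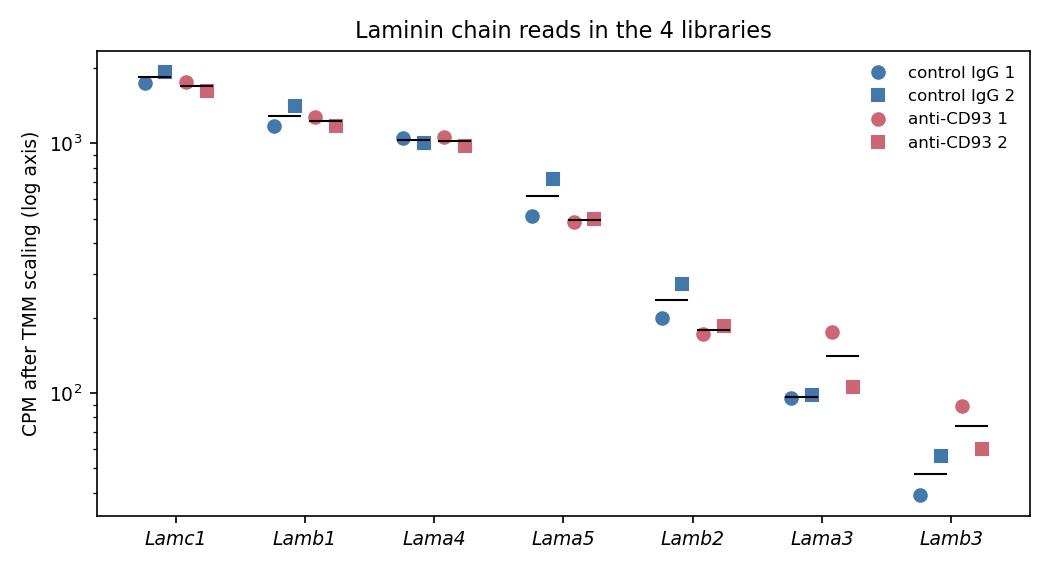
Reads of the 7 members in each library, as CPM after TMM scaling on a log axis; circles and squares are replicates 1 and 2, blue is control IgG, red is anti-CD93, and black lines are the means of 2 libraries. Lama5 and Lamb2 were highest in control IgG replicate 2, at 717 and 273 CPM, and Lama3 and Lamb3 were highest in anti-CD93 replicate 1.

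**Figure D2:**
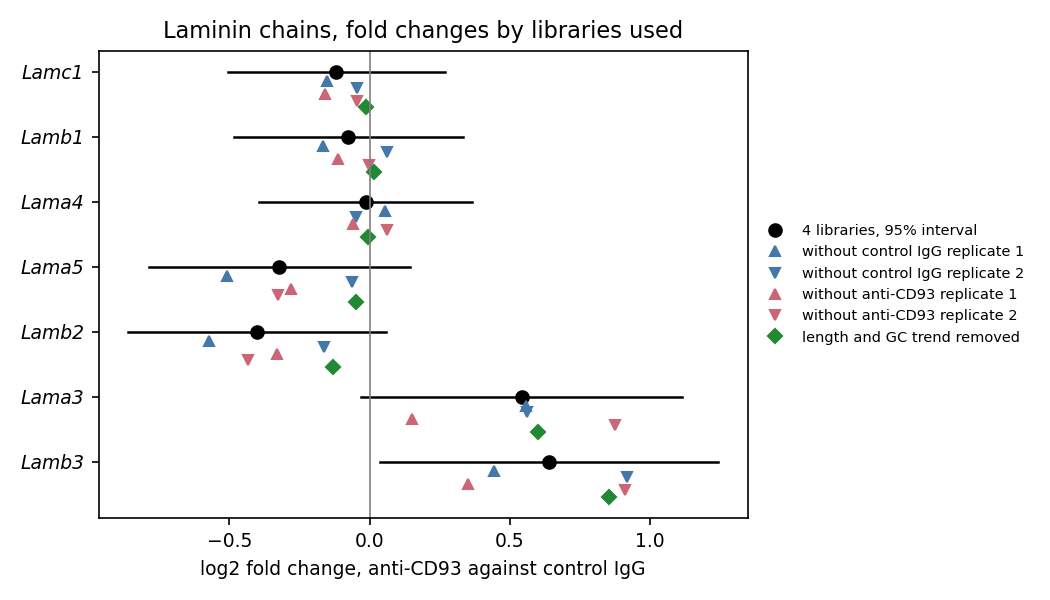
Log2 fold change of each member, anti-CD93 against control IgG, from 4 libraries (black, with the 95% interval), without each library in turn (triangles), and with the length and GC trend taken out (diamonds). Lama5 and Lamb2 moved close to 0 without control IgG replicate 2 and with the trend removed, and Lama3 and Lamb3 stayed above 0 in every fit drawn.

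Lama1, Lama2 and Lamc3 are laminin chain genes outside the 7 and were read at lower levels than any of the 7. Lama2, the gene of the alpha2 chain of muscle laminin, was at 10.7, 12.9, 12.2 and 12.1 CPM, with no library apart from the rest. Lama1, the gene of the embryonic alpha1 chain, had 8, 22, 28 and 49 reads, and Lamc3, the gene of gamma3, had 2, 8, 5 and 0 reads and was not tested. Neither Lama1 nor Lama2 passed the test by edgeR, DESeq2 or limma-voom, and 0 of these 2 had an unadjusted p under 0.05 by edgeR.

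Levels of different chains were compared per length, as TPM (reads per base of gene length, scaled to the same total in each library). Lamc1 was highest at 670, 765, 673 and 638 TPM, and Lamb1 followed at 375, 466, 406 and 385 TPM. Lama4 was at 277, 273, 279 and 263 TPM. Lama5 was at 143, 206, 135 and 142 TPM. These 4 did not overlap in range and kept this order in every library. Lamb2 followed Lama5 in each library at 104.3, 147, 89.8 and 98.8 TPM, although their ranges overlapped. Lama3 at 28.2, 30.0, 51.7 and 32.1 TPM and Lamb3 at 18.9, 27.8, 42.3 and 29.4 TPM were the lowest, and their ranges also overlapped.

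The deposited gene lengths count every exon of all annotated transcripts of a gene, and that bears on these levels. Lama4 has 12068 such bases, but its transcript with the longest coding sequence in GENCODE vM21 has 6046. For Lama5 both lengths are 11388. With transcript lengths in place of the deposited ones (an alternative added with the data in view), Lama4 was at 76.0%, 65.7%, 76.1% and 75.6% of the Lamc1 level per length, against 41.3%, 35.7%, 41.4% and 41.1% with the deposited length. Lamb1 was at 88.3% to 96.2% of Lamc1 and Lama5 at 18.4% to 24.8%. The members kept their order on this scale, except that Lamb3 lay above Lama3 in 3 libraries. All alpha chains together then came to 94.8% to 102.3% of the Lamc1 level and all beta chains to 107.3% to 119.9%, where the deposited lengths gave 67.0% to 69.5% and 74.3% to 83.7%.

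**Figure D3:**
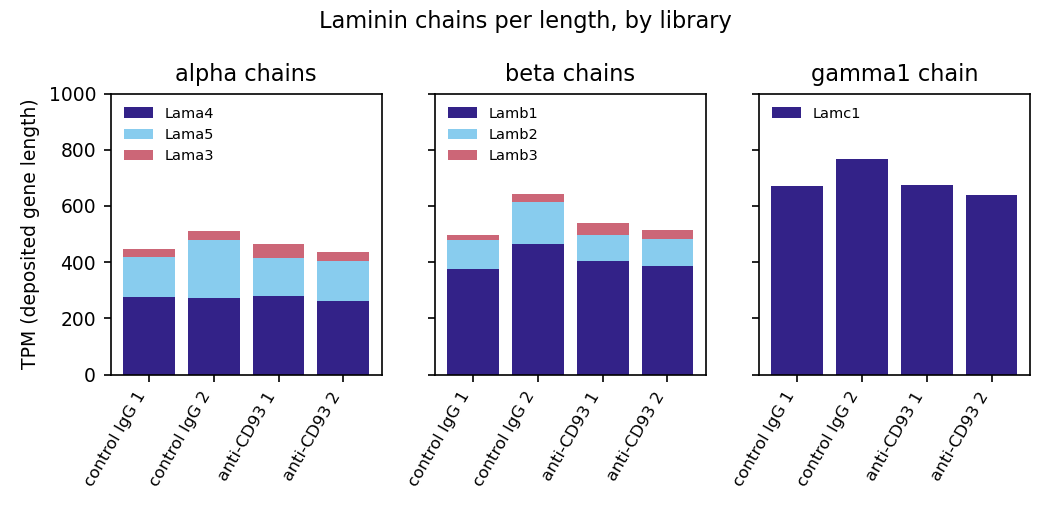
TPM of the alpha, beta and gamma1 chains of the 7 members in each library from the deposited gene lengths, as stacked bars that start at 0. Lama4 and Lamb1 made up most of the alpha and beta bars in each library, and the red tops (Lama3 and Lamb3) were tallest in anti-CD93 replicate 1.

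The make-up of the chains is given as shares per length, with no test. Lama5 made up 34.0% and 43.0% of Lama4 plus Lama5 with control IgG and 32.6% and 35.1% with anti-CD93, and the groups overlapped. Lamb2 made up 21.8% and 24.0% of Lamb1 plus Lamb2 with control IgG and 18.1% and 20.4% with anti-CD93. The Lamb2 share was lower in both anti-CD93 libraries than in both control libraries, with a difference of -3.61 percentage points between the means and -2.52 without control IgG replicate 2. Lama3 plus Lamb3 made up 2.91% and 3.02% of the 7 chains with control IgG and 5.61% and 3.87% with anti-CD93. This share was higher in both anti-CD93 libraries, by 1.78 points between the means and by 0.907 points without anti-CD93 replicate 1.

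Differences within a group were as large as those between the groups for several members. Between the control libraries, replicate 2 was above replicate 1 by 0.48 on the log2 CPM scale for Lama5, 0.45 for Lamb2 and 0.51 for Lamb3. The difference was 0.27 for Lamb1, 0.14 for Lamc1, 0.040 for Lama3 and -0.067 for Lama4. Members with GC-rich transcripts stood highest in this difference. The longest transcript of Lama5 has 59.9% GC, that of Lamb2 58.8% and that of Lamb3 55.6%, and the other 4 members run from 50.03% (Lama4) to 53.0% (Lamc1).

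Over all genes, control IgG replicate 2 had its own trend with GC. Genes near 60% GC lay 0.36 higher (log2) than genes near 50% GC in that library, relative to the mean of the 4. They lay 0.11 to 0.15 lower in the other 3. Each gene was set against its own mean, so these 3 values together had to offset the first. Once this trend, fitted on length and GC in each library, was taken out (also an alternative added with the data in view), the log2 fold change of Lama5 was -0.049 and that of Lamb2 was -0.13. Those of Lama3 and Lamb3 were 0.60 and 0.86, with unadjusted p = 0.0284 and 0.00227 and adjusted p = 0.832 for both by edgeR. Taking it out moved the GC-rich vascular chains towards 0 and the epithelial chains away from it. Lamc1, Lamb1 and Lama4 were at -0.014, 0.018 and -0.0068.

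Between the anti-CD93 libraries the epithelial chains stood apart. Replicate 1 was above replicate 2 by 0.73 for Lama3 and 0.57 for Lamb3 on the log2 scale. For the 5 vascular chains the same difference ran from -0.098 (Lamb2) to 0.13 (Lama4).

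**Figure D4:**
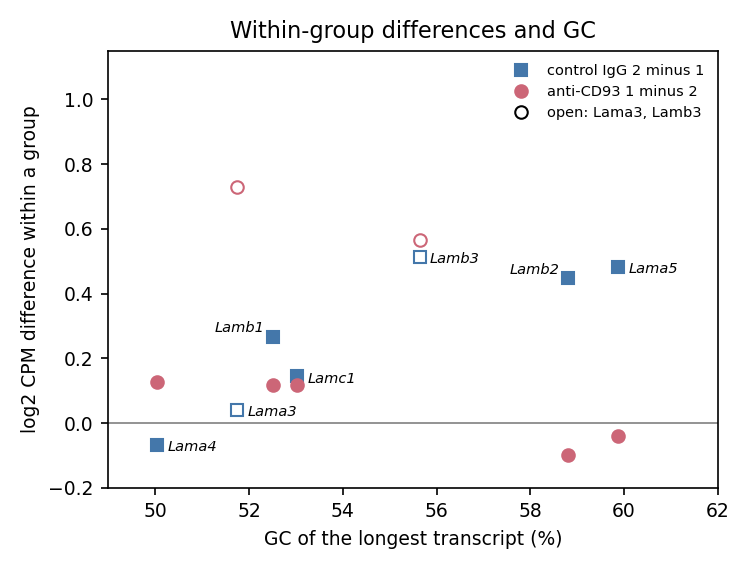
Log2 CPM difference between the 2 libraries of a group for each chain, control IgG replicate 2 minus 1 (blue squares) and anti-CD93 replicate 1 minus 2 (red circles), against the GC percent of its longest transcript. Lama5 and Lamb2, at 59.9% and 58.8% GC, differed between the control libraries by 0.48 and 0.45, and the open red symbols of the epithelial chains lie at 0.57 and 0.73.

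Epithelial genes were read in the sorted cells, beside the epithelial laminin chains. The 11 epithelial markers on the list had a summed level of 1758 and 2573 CPM with control IgG and 2486 and 2073 CPM with anti-CD93, against 13720 to 17280 CPM for 15 endothelial markers. Most of the epithelial sum was keratin, with Krt8 at 617, 937, 855 and 712 CPM, while Cldn4 and Cldn7 were under 4 CPM in each library and Esrp1 was at 0 in control IgG replicate 1. With anti-CD93, 6 of the 10 tested markers were on the higher side and 4 on the lower, and their median log2 fold change was 0.033. Without control IgG replicate 2, where Krt8, Krt18 and Krt19 were highest, 7 of the 10 were on the higher side with a median of 0.35, and with the length and GC trend taken out 8 of 10 with a median of 0.22. Epcam, an epithelial adhesion protein, was at 21.7 and 23.4 CPM with control IgG and 34.1 and 41.1 CPM with anti-CD93, and was highest in anti-CD93 replicate 2, not in replicate 1 where the epithelial laminin chains were highest. Cdh1, the gene of E-cadherin, chosen here with its values known, was at 216, 210, 351 and 290.0 CPM. It was highest in anti-CD93 replicate 1, as was Elf3, also named with its values known, at 48.9, 101.9, 103 and 78.5 CPM. No other marker on this list was highest in that library. Of the 10 tested markers, Epcam and Cdh1 were the 2 higher with no overlap of the groups. Cldn7, a tight junction gene, was the 1 lower with no overlap, at 1.80, 1.61, 0.508 and 0.581 CPM. Over all genes tested, 20.1% were higher and 19.7% lower with no overlap. None of these 3 markers passed (adjusted p = 0.812 by edgeR for each). The part of these cells in the values of Lama3 and Lamb3 was not tested.

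**Figure D5:**
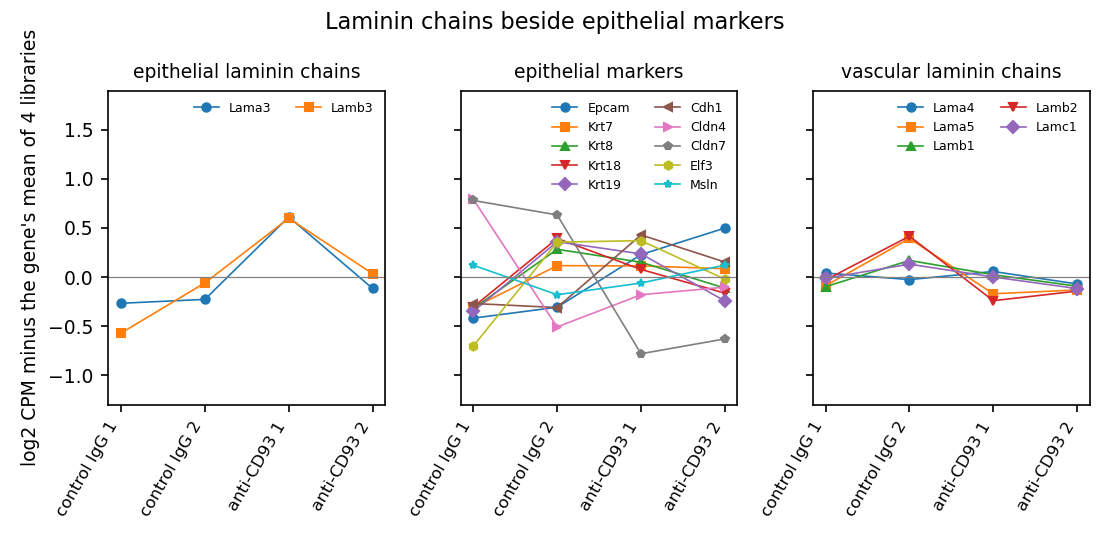
Log2 CPM of each gene in the 4 libraries, less its own mean of the 4, for the epithelial laminin chains, the 10 tested epithelial markers and the vascular chains; lines join the values of 1 gene and give no order. The epithelial chains peak in anti-CD93 replicate 1, at 0.61 for Lama3 and 0.60 for Lamb3, while Krt8, Krt18 and Krt19 are highest in control IgG replicate 2.

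Markers of the endothelium itself and of other cells were read beside the vascular chains. Of the 15 endothelial markers, 13 were on the lower side with anti-CD93 and 2 on the higher, with a median log2 fold change of -0.21. 8 were lower with no overlap of the groups, where 19.7% of all genes tested lay. 3 had an unadjusted p under 0.05 by edgeR, all on the lower side, where 2.50% of all genes lay. 0 passed after adjustment. Without control IgG replicate 2 the median was -0.059, with 11 of 15 on the lower side. With the length and GC trend taken out it was -0.053, with 10 of 15 on the lower side. The 11 mural cell markers had a summed level of 1007 and 876 CPM with control IgG and 1051 and 870 CPM with anti-CD93. Of the 11, 7 were lower with anti-CD93 and 4 higher, with a median log2 fold change of -0.29. With no overlap of the groups, 5 were lower and 1 higher, beside 19.7% and 20.1% of all genes. The mural median was -0.091 without control IgG replicate 2 and -0.10 with the length and GC trend taken out. Pdgfrb, a pericyte receptor, was at 59.6, 82.0, 76.0 and 53.5 CPM. The 8 fibroblast markers summed to 2263, 2934, 1894 and 2358 CPM, of which Col1a1 gave 953, 1245, 819 and 982 CPM. The 5 lymphatic markers summed to 623, 605, 540 and 566 CPM, and Prox1, their transcription factor, was at 43.2, 30.6, 23.1 and 42.0 CPM. The 10 leukocyte markers summed to 18.9 to 36.2 CPM, with Cd3e and S100a8 at 0 in 1 library each. All 5 lymphatic markers were lower with anti-CD93 (median log2 fold change -0.19), and the fibroblast markers were 4 lower and 4 higher (median 0.019). Of 6 leukocyte markers tested, 4 were higher and 2 lower (median 0.28). The part of these cells, or of a different share of endothelial cells, in the values of the vascular chains was not tested.

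Genes of the basement membrane around laminin did not pass the test, and most had values on the lower side. Of 17 partner genes 14 were tested, 11 lower and 3 higher with anti-CD93, with a median log2 fold change of -0.22, and 0 passed by edgeR, DESeq2 or limma-voom, with 1 (Col18a1) at an unadjusted p under 0.05 by edgeR. Without control IgG replicate 2, 7 of the 14 were lower and 7 higher, with a median of 0.0059, and with the length and GC trend taken out the median was -0.037. Like Lama5 and Lamb2, the genes named from this list were highest in control IgG replicate 2. Col18a1, a heparan sulphate collagen, was at 1709, 2632, 1408 and 1517 CPM. Its log2 fold change of -0.57 became -0.23 when control IgG replicate 2 was left out, and those of Col4a1, Hspg2, Tinagl1 and Col15a1 became -0.040, 0.055, -0.012 and -0.00099. Col15a1, a related collagen, was at 1012, 1808, 1034 and 991 CPM, and Tinagl1, a matrix protein that binds laminin, at 83.0, 170.0, 89.3 and 75.3 CPM. The network collagens Col4a1 and Col4a2 were at 13320, 19230, 12540 and 13410 CPM and at 8332, 12490, 7900 and 8329 CPM. Hspg2, which encodes perlecan, was at 4050, 6408, 4261 and 4167 CPM.

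Laminin receptors were split. All 14 were tested, 6 on the higher side and 8 on the lower, at a median log2 fold change of -0.048, and 0 passed by edgeR, DESeq2 or limma-voom, with 1 (Bcam) at an unadjusted p under 0.05 by edgeR. The median turned to 0.064 without control IgG replicate 2 and to 0.079 with the length and GC trend taken out, with 10 of 14 on the higher side in both. Bcam, the Lutheran receptor of alpha5, was at 65.4, 95.7, 54.1 and 46.9 CPM. Its log2 fold change was -0.67 (SE 0.23, adjusted p = 0.812 by edgeR), and -0.37 when control IgG replicate 2 was left out. Without the other control library, Bcam and Col18a1 passed, at -0.88 and -0.81 (adjusted p = 0.00134 and 0.000756 by edgeR), in the fit where 24.7% of all genes passed. Cd151, a tetraspanin partner of laminin-binding integrins, was at 110.5, 146, 101.6 and 101.9 CPM, and Mcam, a receptor of alpha4, at 906, 957, 845 and 802 CPM. The integrin genes named by the rule, Itgb1, Itga6 and Itgav, were lowest in control IgG replicate 2, as were Itga1 and Itga2. Itga3, Itga7, Itga9, Itgb3 and Itgb4 were not. Itgb1 was at 1282, 890, 1381 and 1256 CPM, Itga6 at 593, 473, 639 and 604 CPM and Itgav at 203, 120, 214 and 228 CPM. Itgb4, the beta4 partner of alpha6 that binds the epithelial laminin, was also chosen with its values known. It was at 155, 258, 171 and 182 CPM, highest in control IgG replicate 2 and not in anti-CD93 replicate 1.

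The genes nearest to each member over the 4 libraries were sought by the root mean square distance of log2 CPM, each gene less its own mean, among 10240 genes. The nearest to Lama5 were Vars and Lrpap1, and to Lamb2 Dvl1 and Fbrsl1, all highest in control IgG replicate 2. Within a distance of 0.1 lay 1132 genes for Lama5, 843 for Lamb2, 1340 for Lamb1, 1444 for Lamc1 and 1373 for Lama4. The distance is not scaled to a gene's spread, so a member that varied little is near flat genes. The SD of log2 CPM over the libraries was 0.059 for Lama4, 0.10 for Lamc1 and 0.13 for Lamb1. It was 0.26 for Lama5 and 0.29 for Lamb2, whose patterns were thus shared with many genes. The nearest were Ywhae and Eid1 for Lama4, Tbc1d31 and Dhdds for Lamb1, and Dhx32 and Pyroxd1 for Lamc1. Fewer genes lay within 0.1 of the epithelial chains, 13 for Lama3 and 5 for Lamb3. Their SDs were larger, at 0.41 and 0.48, so these counts cannot be set against those of the other members. The nearest to Lama3 were Aim2, at 11.8, 12.7, 21.5 and 13.3 CPM, and Rpl17-ps10, a pseudogene by its name, whose reads may be split with near-identical copies, which was not tested. The nearest to Lamb3 were Ikbke and Lif, and Lif was at 10.4, 13.4, 20.3 and 14.8 CPM.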

How the data were processed

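The deposited values are raw read counts per gene name, made by featureCounts 2.0.1 with GENCODE vM25 per the file headers, beside a gene length in bases. The command in the header sets neither a paired-end nor a strand option, so mates were counted singly and strand was ignored although the kit is stranded per the labels. Per the submitters' processing notes, STAR 2.7.5b, DESeq2 1.28.1 and GRCm38 were used. A second deposited table held the same counts (0 of 221468 cells differed).

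The filter was filterByExpr (minimum count 10) and the scaling TMM. The test was edgeR 4.0.16's quasi-likelihood test (robust dispersion, R 4.3.3), 2 libraries against 2, at an adjusted p under 0.05. DESeq2 1.42.0 and limma-voom (limma 3.58.1) were alternatives, and the edgeR script was tested on simulated data. SE is the log2 fold change over the root of F. log2 CPM used a prior count of 2. TPM used the deposited length. Every member had at least 482 reads in each library; the 2 libraries per group limit the precision. The members, gene lists and rule for named genes were chosen with earlier results of these data known. The rule took the members, the other laminin chains, Cd93, Pecam1 and Ptprc, from the partner and receptor lists the 3 genes with the smallest p and the 3 with the highest CPM, the first marker of each cell type, and the 2 genes nearest to each member with at least 5 CPM, without Gm or Rik names. GC came from GENCODE vM21 transcripts (98.1% of tested genes). Promoter sequences are RefSeq's, GRCm38.p6. Some results are not reported here.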

Additional observations from a re-analysis of the deposited data

How the results depend on the processing

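The members were refitted under 14 alternatives each. Of 98 values 92 kept their direction and 2 passed the threshold, Lama5 and Lamb2 without control IgG replicate 1. The count of genes called, 0 with all 4 libraries, was 48 with no count filter, 5 by DESeq2 and 0 to 4623 with 1 library left out. Without control IgG replicate 1, 24.7% of 18750 genes were called, as were 7 of 17 partner genes and 8 of 14 receptors, which ranged from 0 to 7 and 0 to 8 over the libraries left out. Lama4 turned sign to 0.034 with no count filter and 0.00069 by DESeq2, and Lamb1 to 0.018 with the length and GC trend removed. With 1 library left out the log2 fold changes ran from -0.059 to 0.062 for Lama4, -0.17 to 0.063 for Lamb1, -0.16 to -0.046 for Lamc1, -0.51 to -0.063 for Lama5, -0.57 to -0.16 for Lamb2, 0.15 to 0.88 for Lama3 and 0.35 to 0.92 for Lamb3; where 1 library stood for its group it was assumed to vary like the other group. The shares kept their direction in each alternative, with differences from -9.19 to -0.195 points for Lama5 of Lama4 plus Lama5, -4.77 to -2.46 for Lamb2 of Lamb1 plus Lamb2 and 0.907 to 2.65 for Lama3 plus Lamb3. The replicate number as a block gave 14 called genes and 0 members. Same-numbered libraries did not deviate together (correlation across genes -0.016), and the labels do not say that a number marks a shared mouse or day. Beyond the settings that change construction (fewer libraries or more genes), the cause of these changes was not tested.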
